A study of Mus musculus with 32 samples.

Results

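The genes described here are the nuclear genes whose mouse symbol begins with Nduf, the name given to subunits and assembly factors of respiratory complex I. All Nduf symbols without the ending -ps were taken, and those with a mean of at least 1 CPM, the read count scaled to the library total, over all libraries were kept. This gave 46 of the 49 such genes, out of 41388 genes in the tables. The member just inside the limit was Ndufaf6 at 1.66 CPM. The 3 genes outside it were Ndufa11b at 0.377, Ndufs6b at 0.315 and Ndufb4c at 0.0134 CPM. Of these, Ndufs6b and Ndufb4c are annotated as processed pseudogenes, which the rule on -ps did not leave out. All 46 members passed the filter on low counts that left 16136 genes for testing.

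Complex I takes electrons from NADH and passes them to ubiquinone, and it uses the energy of that transfer to pump protons across the inner mitochondrial membrane. It has a matrix arm, which carries the flavin and the iron-sulfur clusters, and a membrane arm, which pumps. Core subunits are shared with bacteria and are coded partly in the nucleus and partly in mitochondrial DNA, accessory subunits surround them, and assembly factors build the complex without remaining in it. Chondrocytes live in cartilage without blood vessels and are known for making much of their ATP by glycolysis.

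RNA was sequenced from primary chondrocytes of the femoral head of 2 inbred mouse strains, LG/J and SM/J, with the design text of the series setting cartilage regeneration beside degeneration. The mice were at postnatal day 21, and the cells were seeded at 100000 per well, grown for 4 days in high glucose DMEM with 10% serum and taken without passage. Strain and sex made 4 groups of 8 libraries, with no treatment and no other allele named. The labels do not say whether the libraries were separate animals or cultures, so p-values measure the spread between libraries, which may be partly technical.

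Total counts ran from 15840330 to 25571598 per library. LG/J female 1 and LG/J male 1 stood apart: the chondrocyte genes Acan (48.2 and 67.7 CPM, against 1177 to 3362 in the other LG/J libraries) and Col2a1 (629 and 1379 CPM, against 7536 to 14862) were low in them. Xist, which is made from an inactive X chromosome, and Ddx3y, which lies on the Y chromosome, were both present in 6 libraries. Among females these were numbers 4 and 5 of LG/J and 3 and 4 of SM/J, with Ddx3y at 19.6 to 82.6 CPM against at most 1.26 in the other females, and SM/J males 2 and 3, with Xist at 16.3 and 17.7 CPM against at most 0.606 in the other males. In bulk RNA, fewer cells of a type and less RNA per cell cannot be told apart. Levels below are CPM scaled with the trimmed mean of M-values (TMM), a log2 fold change is an edgeR estimate ± its standard error (SE), and a gene was called at an edgeR p-value under 0.05 after Benjamini-Hochberg adjustment over all genes tested.

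A pair of members have near-identical copies elsewhere in the genome with reads of their own, and their sequences are shown because they bear on what the counts mean. Ndufs5, an accessory subunit of the membrane arm, lies at chr4:123712710-123718202 on the minus strand of GRCm38, and its retrocopy BC002163 lies at chr16:42955631-42955949 on the plus strand. Over 318 coding bases the GENCODE transcripts of both loci shared 316, with the differences T81C and A105G, counted from 1 at the first base of the Ndufs5 coding sequence. Bases 59 to 127 hold both differences, in capitals.
Ndufs5: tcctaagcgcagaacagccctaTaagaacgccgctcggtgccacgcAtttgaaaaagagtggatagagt
BC002163: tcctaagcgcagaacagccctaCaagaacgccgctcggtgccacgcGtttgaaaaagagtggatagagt
Ndufa12, an accessory subunit of the matrix arm, lies at chr10:94198955-94221443 on the plus strand, and the processed pseudogene Gm15920 lies at chr5:130188395-130188796, also on the plus strand. They shared 397 of 399 coding bases, with A147G and T426C counted from the first base of the Ndufa12 coding sequence. Bases 125 to 169 hold the first difference.
Ndufa12: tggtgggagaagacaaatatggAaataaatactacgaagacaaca
Gm15920: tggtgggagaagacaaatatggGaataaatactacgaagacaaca

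Ndufs5 was the member with the widest strain difference. Its level was 29.0, 38.1 and 50.9 CPM (lowest, median and highest of 16 libraries) in LG/J and 0.578, 0.982 and 1.83 CPM in SM/J. The retrocopy showed the opposite order, with 0.616, 0.997 and 1.57 CPM in LG/J and 35.7, 48.7 and 62.6 CPM in SM/J. No LG/J library overlapped any SM/J library at either locus, and each strain held nearly all of its reads at a single locus: 96.2% to 98.3% of the reads of both loci lay at Ndufs5 in LG/J libraries and 0.928% to 3.28% in SM/J libraries. Genes with all LG/J libraries above all SM/J libraries made up 1.36% of those tested. In edgeR the log2 fold change of LG/J over SM/J was 5.22 ± 0.13 for Ndufs5 (adjusted p = 4.98e-26, 37.1-fold higher).

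How the counting treated reads that match both loci is not given in the sources used here, so the level and the share at each locus cannot be assigned to it with certainty, and reads set aside for matching both would be missing from the sum too. The sum of both loci, which does not depend on how the counted reads were shared between them, reversed the direction. It was 30.2, 39.0 and 52.5 CPM in LG/J and 36.7, 49.8 and 63.8 CPM in SM/J, so that the strains overlapped. The log2 fold change of the sum was −0.36 ± 0.06 (edgeR adjusted p = 5.33e-05), lower in LG/J. At Ndufa12 no such exchange was seen: 69.4% to 75.0% of the reads of both loci lay at Ndufa12 in LG/J and 70.5% to 76.0% in SM/J. Copies at other loci that reached 95% identity over at least 100 bases and had counts, those of Ndufab1, Ndufb11, Ndufb4, Ndufs3 and Ndufs6, summed to at most 0.329 CPM for any member. Gm45930, a processed pseudogene with 96.8% identity to Ndufb3 over 282 bases, was not analysed here.

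**Figure D1:**
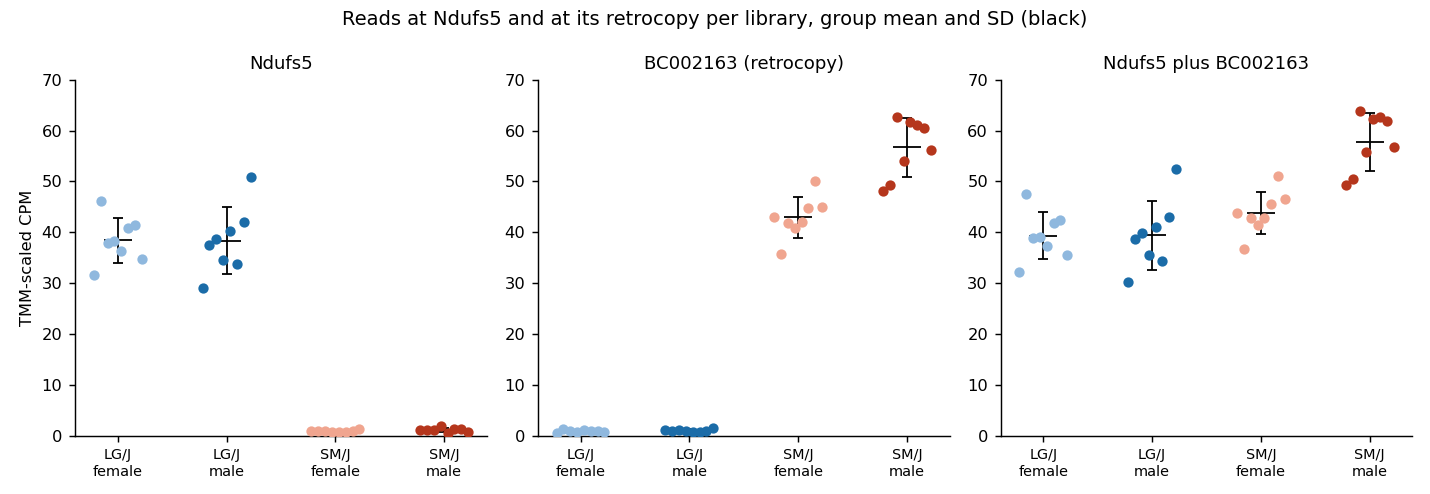
Level in TMM-scaled CPM (vertical axis, same range in each panel) of Ndufs5, of its retrocopy BC002163 and of their sum in the 32 libraries, with dots for libraries 1 to 8 of each group and black bars for the mean and SD. LG/J libraries lie between 29.0 and 50.9 at Ndufs5 and at most at 1.57 at the retrocopy, SM/J libraries lie the other way around, and the sums of the strains overlap.

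The first question of the design is how the strains differ. Over both sexes, 1 member was called higher in LG/J, Ndufs5, and 14 were called lower. Of all 16136 genes tested, 16.4% were called higher and 13.5% lower in LG/J. The median log2 fold change was −0.10 over the members and 0.02 over all genes, and 38 of 46 estimates were below 0. With the copies summed, Ndufs5 moved to the lower side and 15 members were lower.

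Ndufaf5, an assembly factor that hydroxylates an arginine of the core subunit Ndufs7, had the widest difference among the lower members. It was at 13.5, 19.1 and 23.1 CPM in LG/J and at 23.3, 30.4 and 40.0 CPM in SM/J, and no library of one strain overlapped the other. All genes whose LG/J libraries all lay below the SM/J libraries made up 1.26% of those tested. Its log2 fold change was −0.71 ± 0.09 (edgeR adjusted p = 6.03e-08, 1.63-fold lower). The other 13 lower members overlapped between strains, with estimates from −0.42 to −0.12.

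Ndufa12 was at 43.7, 46.8 and 52.0 CPM in LG/J and 44.7, 61.8 and 87.3 CPM in SM/J. Its log2 fold change was −0.42 ± 0.05 (edgeR adjusted p = 2.18e-07), and −0.41 ± 0.05 with Gm15920 added. Ndufb10, a membrane arm subunit on the side of the intermembrane space, was at 146, 210 and 276 CPM in LG/J and 213, 268 and 336 CPM in SM/J, a log2 fold change of −0.38 ± 0.07 (edgeR adjusted p = 2.75e-05). LG/J ranges lay lower for both genes but reached into those of SM/J.

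Of the 6 nuclear-coded core subunits described here, 2 fell in LG/J. Ndufv1, which holds the flavin and binds NADH, was at −0.20 ± 0.04 (edgeR adjusted p = 7.16e-04), and Ndufs1, the largest core subunit with several iron-sulfur clusters, at −0.12 ± 0.04 (edgeR adjusted p = 0.0267). Ndufs1 lost its call in 6 of 12 alternatives, among them library size only (edgeR adjusted p = 0.248) and the fit without LG/J female 1 and male 1 (0.0622). The other 4 did not pass the test, with log2 fold changes of −0.11 ± 0.05 for Ndufs3, −0.09 ± 0.05 for Ndufs7, −0.08 ± 0.08 for Ndufs8 and 0.00 ± 0.05 for Ndufv2. All of these help to build the path of electrons through the matrix arm.

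In the other roles, 1 of 10 accessory subunits of the matrix arm was called lower (Ndufa12) and 7 of 19 of the membrane arm (Ndufb10, Ndufa1, Ndufa3, Ndufb2, Ndufb6, Ndufa10 and Ndufb5). Ndufa1 was at −0.25 ± 0.05 (edgeR adjusted p = 9.74e-05). Of 8 assembly factors, 2 were lower: Ndufaf5, and Ndufaf1, which works in the membrane arm assembly complex, at −0.23 ± 0.06 (edgeR adjusted p = 0.00283). Ndufaf1 was at 26.3, 31.9 and 44.5 CPM in LG/J and 34.2, 37.8 and 46.7 CPM in SM/J. The group also holds Ndufa4 and Ndufa4l2, which carry the name without being complex I subunits. Ndufa4, now placed in cytochrome c oxidase, was lower in LG/J (258, 313 and 364 CPM against 270, 373 and 544 CPM, log2 fold change −0.31 ± 0.07, edgeR adjusted p = 6.23e-04). Ndufa4l2, its relative that is known to be induced in low oxygen, varied widely, at 95.9 to 678 CPM in LG/J and 64.6 to 620 CPM in SM/J, with a log2 fold change of 0.07 ± 0.30 that did not pass the test.

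**Figure D2:**
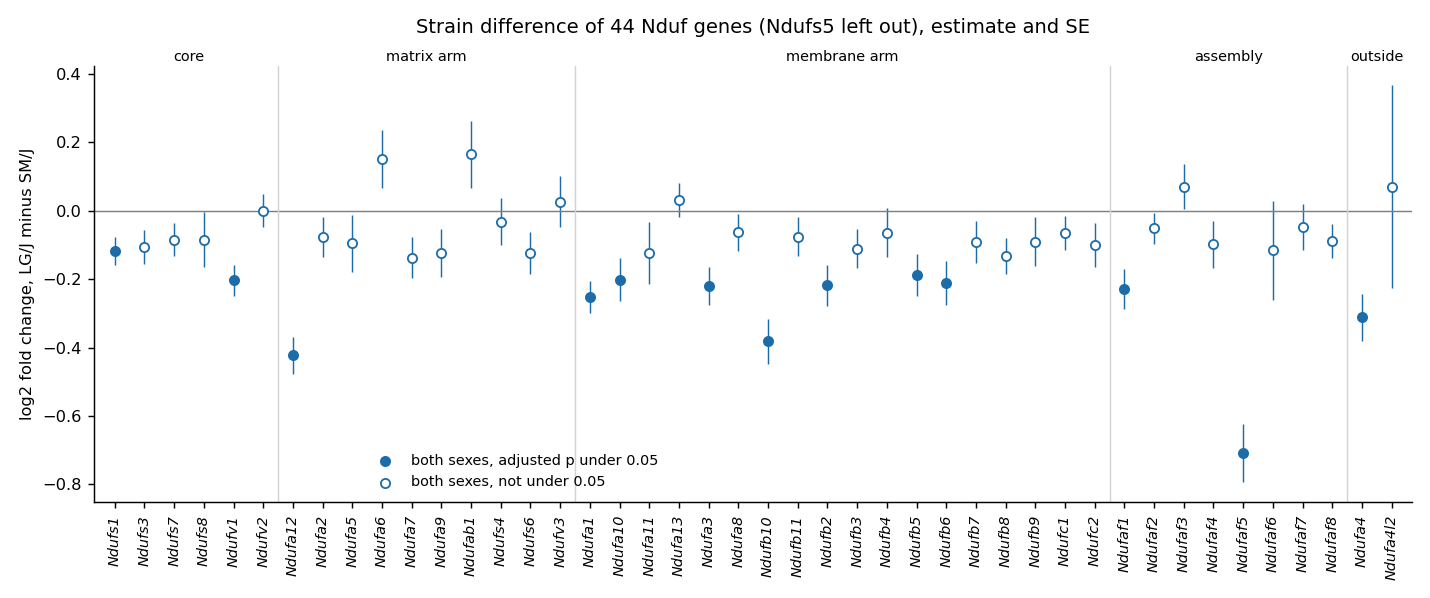
Log2 fold change of LG/J over SM/J, both sexes (vertical axis, estimate and SE), for 44 Nduf genes ordered by role, with filled dots for an adjusted p under 0.05. Ndufs5, at 5.22, is left out because it would set the scale. The 13 filled dots all lie below 0, from −0.71 for Ndufaf5 to −0.12 for Ndufs1.

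Between males of the strains, 23 members were lower in LG/J and 2 higher (Ndufs5 and Ndufab1), where 9.48% of all genes were called lower and 12.8% higher. Between females, 4 were lower and 1 higher, where 6.49% and 6.87% of all genes were called. Ndufs5, Ndufaf5 and Ndufa12 were called in each sex and over both. Ndufaf5 was at −0.63 ± 0.12 in females and −0.79 ± 0.12 in males. Every LG/J male library lay below every SM/J male library for Ndufaf5, Ndufa12, Ndufa1 and Ndufb2, where 2.63% of all genes tested did so. Without LG/J female 1, 1 member was lower between females, and without LG/J female 5, 2 were. With libraries that lay close to each other summed, 7 members were lower between males and 7 over both sexes. Library size alone as the scaling left 8 lower between males, removal of the length trend 12 and no filter 14. For these alternatives the shares of all genes called are not given here.

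The next question is how the sexes differ within each strain. In SM/J, 24 members were higher in males and 1, Ndufab1, was lower, where 2.3% of all genes tested were called higher and 3.46% lower. The median log2 fold change was 0.30 over the members and −0.03 over all genes, and 44 of 46 estimates were above 0. Of the 6 libraries that held both Xist and Ddx3y, 4 are in this comparison, and without the 6 libraries 16 of the 24 calls remained. The share of all genes called without those libraries is not given here. In LG/J no member was called in either direction by edgeR, where 0.0124% of all genes were called higher and 0.0372% lower in males. DESeq2, which called 0.124% of all genes there, called none of the members either. An unadjusted edgeR p under 0.05 was reached by 1 member of 46 and by 899 of all 16136 genes tested. LG/J estimates ran from −0.19 to 0.20, and 36 of 46 were above 0. Their median was 0.03, against −0.006 over all genes. Over both strains, 19 members were higher in males and 1 lower, where 1.33% and 2.13% of all genes were called.

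Ndufa1, a small membrane arm subunit coded on the X chromosome at chrX:37187588-37191163, minus strand, had the smallest adjusted p. In SM/J it was at 168, 186 and 213 CPM in females and 226, 269 and 293 CPM in males. In LG/J it was at 175, 184 and 198 CPM in females and 170, 186 and 222 CPM in males. Every SM/J male lay above every other library of the series. The SM/J sex difference was 0.47 ± 0.07 (edgeR adjusted p = 1.45e-04, 1.39-fold), and that of LG/J was 0.03 ± 0.07. Without the 6 libraries that held both Xist and Ddx3y it was 0.41 in SM/J (edgeR adjusted p = 0.00729). Ndufb11, the other X-linked member, was at 153, 172 and 192 CPM in females of SM/J against 206, 236 and 251 CPM in males, again without overlap.

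Ndufc1, another small membrane arm subunit, was at 137, 152 and 166 CPM in females of SM/J against 180, 204 and 230 CPM in males, a log2 fold change of 0.43 ± 0.07 (edgeR adjusted p = 5.84e-04). In LG/J its sexes overlapped, at 154 to 185 CPM in females and 151 to 215 CPM in males. In all, SM/J males lay above all SM/J females for 8 members (Ndufa1, Ndufa2, Ndufa3, Ndufa13, Ndufb11, Ndufc1, Ndufaf2 and Ndufaf3), where 0.514% of all genes tested did so. Ndufaf2 is an assembly factor related to Ndufa12, and Ndufaf3 acts early in building the part of the matrix arm that meets the membrane. Their log2 fold changes in SM/J were 0.37 ± 0.06 and 0.44 ± 0.09, and Ndufaf3 lost its call without the 6 libraries (0.35, edgeR adjusted p = 0.0598). The largest estimate, 0.51 ± 0.13, was that of the membrane arm subunit Ndufa11, chosen here after its value was seen, at 204, 216 and 264 CPM in females of SM/J against 253, 328 and 378 CPM in males. Without the same 6 libraries Ndufa11 was at 0.52 and lost its call (edgeR adjusted p = 0.0596).

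By role, 3 of the 6 core subunits described (Ndufs3, Ndufs7 and Ndufv2), 6 of 10 matrix arm and 11 of 19 membrane arm accessory subunits, 3 of 8 assembly factors and Ndufa4 were higher in SM/J males. Ndufs3 was at 0.31 ± 0.07, Ndufv2 at 0.31 ± 0.07 and Ndufs7 at 0.27 ± 0.07, which lost its call without the 6 libraries (0.26, edgeR adjusted p = 0.0985). Ndufs8 at 0.30 ± 0.11, Ndufv1 at 0.09 ± 0.06 and Ndufs1 at −0.05 ± 0.06 did not pass the test. The matrix arm members Ndufa2 and Ndufa7 were at 0.43 ± 0.08 and 0.44 ± 0.09, and Ndufa3 of the membrane arm at 0.40 ± 0.08. The sums with the copies had the same direction: that of Ndufs5 and BC002163 was 0.40 ± 0.09 (edgeR adjusted p = 0.00702) and that of Ndufa12 and Gm15920 0.32 ± 0.08 (edgeR adjusted p = 0.0113).

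Ndufab1, the mitochondrial acyl carrier protein, which also serves fatty acid and lipoic acid synthesis, was the 1 member lower in SM/J males. It was at 11.3, 17.4 and 20.0 CPM in females of SM/J against 7.52, 9.70 and 15.5 CPM in males, with overlap, and its log2 fold change was −0.59 ± 0.14 (edgeR adjusted p = 0.00929). Its gene length in the tables was 6883 bases, the second longest of the members after Ndufs1 with 8086.

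**Figure D3:**
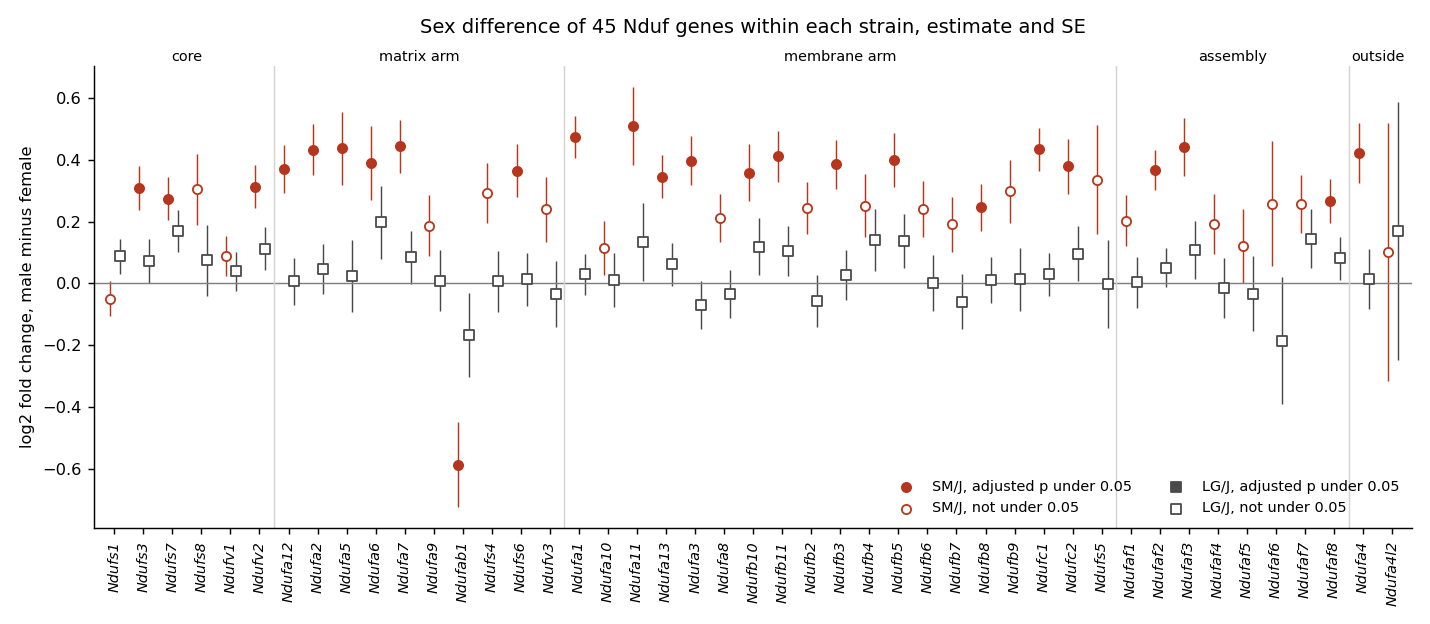
Log2 fold change of males over females (vertical axis, estimate and SE) for 45 Nduf genes ordered by role, with circles for SM/J and squares for LG/J and filled symbols for an adjusted p under 0.05. In SM/J 24 filled circles lie above 0 and Ndufab1 lies below, while no LG/J square is filled.

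The difference between those sex effects, which is also the difference of the strain effect between sexes, was tested as an interaction. No member was called by edgeR, where 0.0062% of all genes were called. An unadjusted edgeR p under 0.05 was reached by 24 of 46 members and by 1345 of all 16136 genes tested. Of the 46 estimates, 42 were below 0, with a median of −0.26. DESeq2, which called 0.31% of all genes, called 3 members, Ndufa1 (−0.45 ± 0.10, DESeq2 adjusted p = 0.00687), Ndufa3 (−0.47 ± 0.12, DESeq2 adjusted p = 0.0194) and Ndufc1 (−0.41 ± 0.11, DESeq2 adjusted p = 0.0309). Without LG/J male 8, edgeR called Ndufa1, Ndufa3 and Ndufc1 too (adjusted p = 0.0381 for each), and without SM/J male 1 it called Ndufa1. In the edgeR fit of all 32 libraries the sex difference was not shown to differ between strains for any member. Of the members, 16 were both lower in LG/J males than in SM/J males and higher in SM/J males than in SM/J females. Those comparisons share the SM/J males. The share of all genes called in both was not counted. It can be at most 2.3%, the share called higher in SM/J males.

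Libraries of a group differed from each other across many members at once. The summed level of the 46 members was 5802, 6415 and 7029 CPM in LG/J females and 6065, 6340 and 8248 in LG/J males. For SM/J it was 5932, 6236 and 6932 in females against 6821, 7957 and 8736 in males. SM/J males 1 and 2, at 7022 and 6821, lay next to the highest female, while SM/J males 6 and 7 were the highest of all 32 libraries for 11 and 13 members. LG/J male 8 was the highest for 10 members, and LG/J female 1 was the lowest for 15. SM/J males 6, 7 and 8 were also close to each other over all genes. Pairs within a group were taken as close where their squared difference, as a median over genes, was under 5 times that of sampling noise. This held for 9 of 112 pairs. The limit did not fall in a clear gap, with the last pair inside it at 4.96 and the next at 5.29. With such close libraries summed, which turned 32 libraries into 24, 3 members were higher in SM/J males (Ndufa1, Ndufaf2 and Ndufc1), and the median over all members was still 0.30. With library size alone as the scaling 8 were higher. The shares of all genes called in these fits are not given here.

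**Figure D4:**
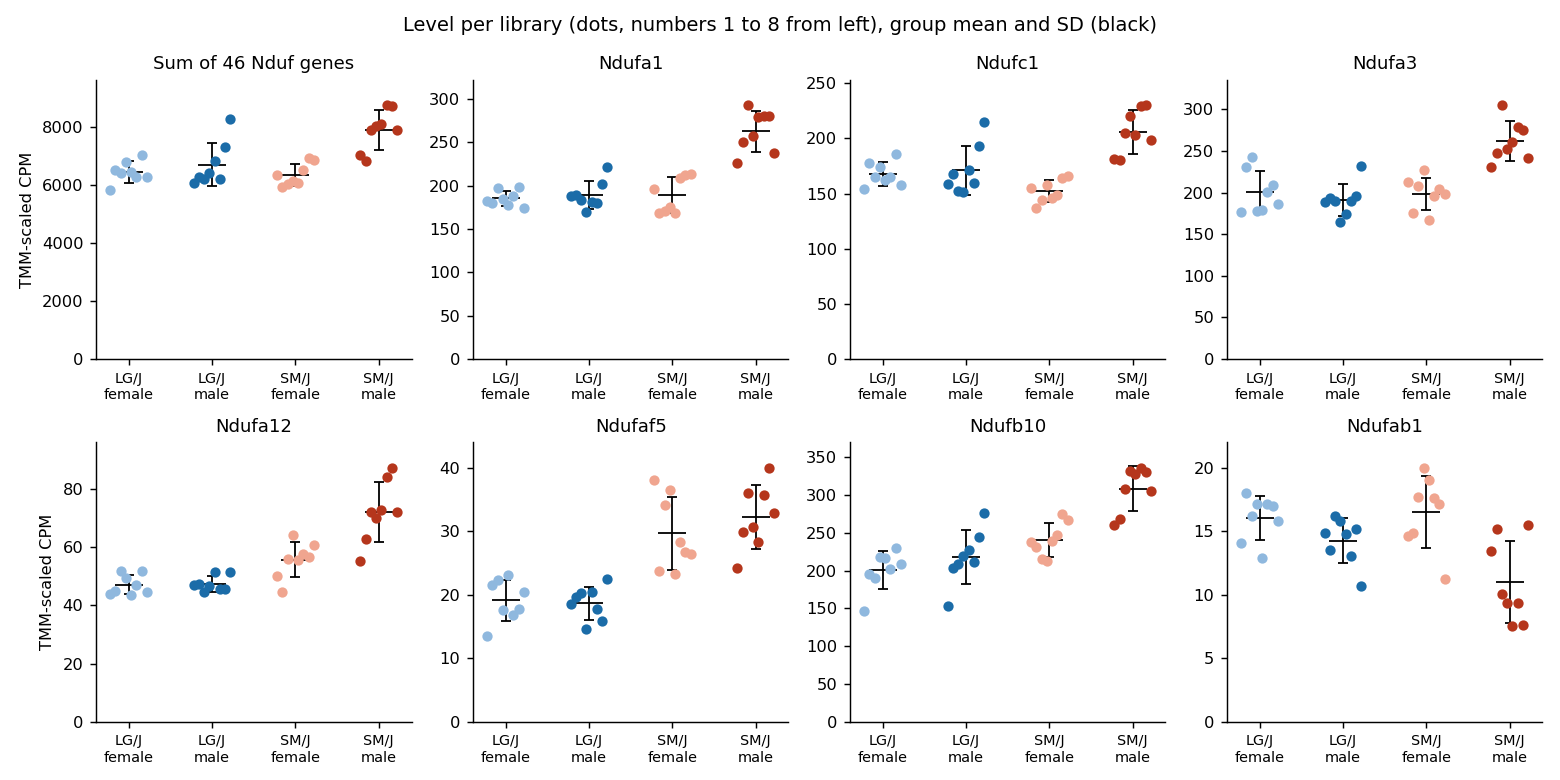
Level in TMM-scaled CPM (vertical axis from 0) of the 46 members summed and of 7 members in each library, with dots for libraries 1 to 8 from left to right in each group and black bars for the mean and SD. SM/J males lie highest on average for the sum, Ndufa1, Ndufc1, Ndufa3, Ndufa12 and Ndufb10, Ndufaf5 separates by strain, and Ndufab1 is lowest in SM/J males.

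Nduf genes are short, and fold changes moved with gene length across the whole table. The median length in the tables was 1282.5 bases for the members and 3505 for all genes tested. Over all genes the median log2 fold change of SM/J males over females fell from 0.21 in genes up to 600 bases to −0.18 in genes over 8000 bases. The median of the members lay above that of all genes in each of the 8 length classes: at 600 to 900 bases the 10 members had a median of 0.35 and all genes 0.20, and at 1800 to 2600 bases the 7 members had 0.26 and all genes 0.06. The longest classes held few members: 3 at 4000 to 8000 bases and 1, Ndufs1 at −0.05, over 8000 bases. With the trend over length removed from each library, the median of the members was 0.20, and 7 were called higher in SM/J males. Of the 24 called without that step, the 6 that remained were Ndufa1, Ndufa11, Ndufa7, Ndufaf3, Ndufb5 and Ndufc1. How many of all genes were called after that step is not given here. For the strain difference over both sexes the median of all genes rose from −0.02 to 0.16 between those length classes, and 13 of the 14 lower members remained after the trend was removed, all but Ndufb5. What moved fold changes with length was not tested.

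**Figure D5:**
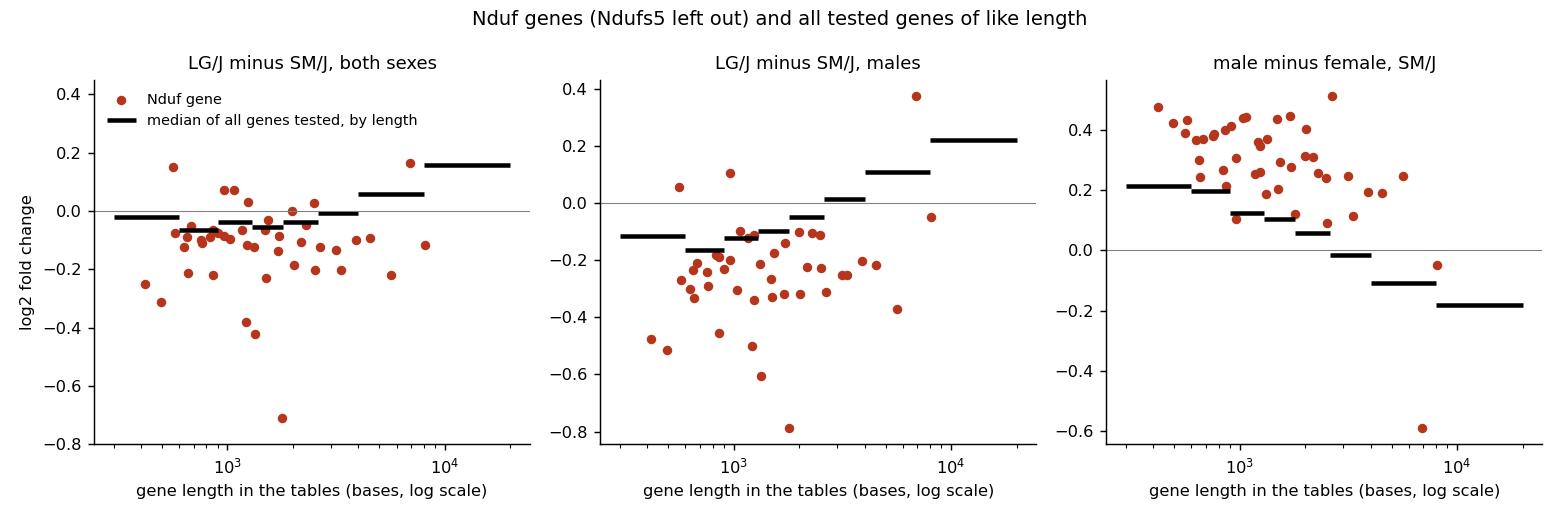
Log2 fold change (vertical axis) against gene length in bases (log axis) for 44 Nduf genes (red dots, without Ndufs5), with black lines for the median of all genes tested in each length class, drawn from 300 to 20000 bases. In the right panel the black medians fall from 0.21 to −0.18 and most red dots lie above them.

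Other genes of the complex gave a mixed picture. Of 7 mitochondrially coded subunits, 5 were tested and mt-Nd3 and mt-Nd4l were listed at 0 in all libraries. Against the 14 nuclear members that were lower, mt-Nd4 and mt-Nd5, which code for proton-pumping subunits, were higher in LG/J, at 0.34 ± 0.12 (edgeR adjusted p = 0.0364) and 0.31 ± 0.11 (edgeR adjusted p = 0.0376). The others tested were not called for strain and lay on both sides of 0. They were mt-Nd1 at −0.16 ± 0.11, mt-Nd2 at −0.14 ± 0.11 and mt-Nd6 at 0.14 ± 0.10. None of the 5 was called for sex in SM/J by edgeR or DESeq2 or had an unadjusted edgeR p under 0.05, with estimates from −0.24 to 0.14. Of 14 assembly factors without the Nduf name, Dmac2 was higher in LG/J (0.15 ± 0.05) and Aifm1 lower (−0.15 ± 0.05). For sex in SM/J, edgeR called 1 of the 14, Dmac1, which was higher in males (0.35 ± 0.08, edgeR adjusted p = 0.00945). DESeq2 called 4 of the 14, and its share of all genes called there is not given here. In that comparison 7 of the 14 had an unadjusted edgeR p under 0.05, as did 3094 of all 16136 genes tested. The median log2 fold change of the 14 was 0.14, against −0.03 over all genes. Of 12 regulators of mitochondrial gene expression, Gabpb1 was higher in LG/J (1.08 ± 0.08), and Pprc1 and Gabpa were lower in SM/J males (−0.53 and −0.43).

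Marker genes of other cell types give values to set beside the sex difference of SM/J. No marker of chondrocytes (10 tested), macrophages (9), osteoclasts (6), osteoblasts (6), fibroblasts (6), endothelium (3), muscle (4) or adipocytes (1) was called between SM/J males and females by edgeR or DESeq2, 3 of the 45 had an unadjusted edgeR p under 0.05, and the 6 red cell genes did not pass the filter. The summed chondrocyte markers were at 11172 to 33952 CPM in females of SM/J against 20356 to 42647 in males, and those of macrophages at 90.0 to 1168 and 190 to 550. In LG/J edgeR called no marker for sex, while 6 of the 9 macrophage markers had an unadjusted edgeR p under 0.05 and DESeq2 called 2 of them. Without TMM scaling and over all 10 listed genes, the summed macrophage markers were at 32.6 to 433 CPM in LG/J females and 47.7 to 1803 in males of that strain. On that scale the sums of SM/J ran from 97.6 up to 1131 CPM for its females, and for its males from 195 up to 554. Between strains over both sexes, edgeR called 11 of the 45 markers. Of all genes tested, 16.4% were called higher in LG/J and 13.5% lower in that comparison. In LG/J 3 chondrocyte markers and the fibroblast marker Thy1 were higher, and 2 macrophage markers, 3 osteoclast markers, the fibroblast marker Acta2 and the muscle marker Tnnt3 were lower. The part of these cells in the Nduf differences was not tested.

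Per unit of gene length, levels of the members spread over a wide range. Ndufa4 at 732, Ndufa2 at 502 and Ndufa1 at 493 RPKM (CPM per kilobase of gene length) were the highest on average, and Ndufaf6 at 1.34, Ndufab1 at 2.11 and Ndufb2 at 2.78 RPKM the lowest. Ndufaf6 is an assembly factor, while Ndufab1 and Ndufb2 are subunits whose gene length in the tables, 6883 and 5628 bases, was long. Their mean CPM without TMM scaling was also low, at 14.5 and 15.7, while that of Ndufs1, with 8086 bases, was 126. The part of gene length in the low RPKM was not tested. Exons of 17 members overlap a gene on the other strand, and for 13 of them that gene had a mean of at least 1 CPM, such as Braf with Ndufb2 and Mrpl47 with Ndufb5. Whether the counting used strand is not given in the sources used here, so reads of such pairs cannot be told apart.

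Promoter windows were looked at because many members moved together in SM/J males. RefSeq windows of 300 bases on GRCm38.p6, from 250 bases before to 50 after the start of transcription, were found for 40 members and for 11666 of all genes tested. The letters AAGATGGCG, a form of the motif of the factor YY1, were searched on both strands and stood in the windows of 6 members (15.0%) and of 370 of all genes (3.17%). The letters GCGCATGCG, a form of the motif of the factor NRF1, searched likewise, stood in 4 members (10.0%) and 437 of all genes (3.75%), and matches on both strands can overlap. The letters CCGGAAG, a form of the ETS motif bound by GABP, also on both strands, stood in 6 members (15.0%) and 2121 of all genes (18.2%). All 6 AAGATGGCG matches lay after the start. Stretches around the matches of the first of these motifs in 3 members and of the NRF1 letters in 2 are shown to let the flanks be compared, with the motif in capitals (overlapping matches joined).
Ndufc1, chr3:51408915-51408943, minus strand: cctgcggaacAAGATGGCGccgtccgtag
Ndufs7, chr10:80249463-80249491, plus strand: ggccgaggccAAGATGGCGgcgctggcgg
Ndufa9, chr6:126849097-126849125, minus strand: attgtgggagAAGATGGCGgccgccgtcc
Ndufaf5, chr2:140170652-140170681, plus strand: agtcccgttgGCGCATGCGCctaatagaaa
Ndufa11, chr17:56717692-56717721, plus strand: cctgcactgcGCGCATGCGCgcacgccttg
Among these genes Ndufc1, Ndufs7 and Ndufa11 were called higher in SM/J males, Ndufa9 was not (0.19 ± 0.10), and Ndufaf5 was called for strain only. Of the other members with the YY1 or NRF1 letters, Ndufs6 and Ndufaf8 were called higher in SM/J males. Ndufs4, Ndufa8 and Ndufaf4 were not (0.29 ± 0.10, 0.21 ± 0.08 and 0.19 ± 0.10). Whether the letters go with the calls was not tested. A match of letters is a description of the window, and binding was not measured.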

How the data were processed

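RNA from 32 libraries of primary chondrocytes was measured, in 4 groups of 8 by strain and sex as the labels give them. Per the submitters' processing notes, GRCm38 was the build, STAR 2.0.4b the aligner and featureCounts of Subread 1.45 the counter. The authors deposited whole-number counts for each gene beside CPM and RPKM. The deposited CPM equalled count over library total, and the deposited RPKM equalled that CPM per kilobase of the gene length in the table. Not given in the sources used here: annotation release, strand setting and treatment of reads that map to several places. A symbol was found for 40254 of 41388 gene IDs.

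Counts were filtered with filterByExpr, scaled with TMM and fitted with edgeR 4.0.16 (robust quasi-likelihood, 1 mean per group, all 32 libraries) in R 4.3.3, and p-values were adjusted over 16136 genes. SE is the estimate over the square root of F. Copies were sought with blastn among GENCODE transcripts of GRCm38, and promoter windows came from RefSeq (GRCm38.p6). Tests were tried on simulated data. The members, roles and lists were chosen with earlier results of these data known. A member is not reported here by name, though counts over all members include it. Named with values are core subunits, Ndufs5 with its retrocopy, Ndufa4, Ndufa4l2 and Ndufab1, up to 6 of the widest called strain differences each way, called assembly factors, up to 6 called members per sex contrast, the highest and lowest RPKM, members without overlap, and up to 3 called genes of each other list. Alternatives were other scalings (DESeq2 size factors, library size only), no filter or a CPM of 1 in 8 libraries, DESeq2 1.42.0, the library number as a block, removal of a lowess trend over gene length, close libraries summed, copies summed, and libraries left out.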

Additional observations from a re-analysis of the deposited data

Results flagged for a closer look

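Within groups of 8 libraries, 10 of 200 groups of values (each member, the copies and the sums, in each of the 4 groups) held a library whose gap to its neighbour was wide for the range of its group by Dixon's test at 95%. Chance alone flags about 1 in 20 groups. LG/J female 1, which stood apart in its chondrocyte genes, was the highest of its group for Ndufa4l2 at 625 CPM, where the next library was at 324, and the lowest for Ndufa5 at 109 CPM, Ndufb3 at 55.2 CPM and Ndufs8 at 133 CPM. LG/J male 8 was the highest of its group for Ndufa3 at 231 CPM and Ndufb6 at 101 CPM. SM/J male 1 was far from the others of its group for Ndufa4l2 at 620 CPM and Ndufaf4 at 53.2 CPM. SM/J male 7 was so for Ndufaf7 at 70.1 CPM, and SM/J female 8 for Ndufs5 at 1.42 CPM, a level set by few reads.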

How the results depend on the processing

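Of the 14 members lower in LG/J over both sexes, 7 kept their call under each of 12 alternatives (among them Ndufa1, Ndufa12, Ndufa4, Ndufaf5, Ndufb10 and Ndufv1), and of the 24 higher in SM/J males 2 did (Ndufa1 and Ndufc1). Where a count changed, the cause was not tested. Shares of all genes called are not given for the edgeR alternatives. A change among the members therefore cannot be set against one in the whole table. With close libraries summed, 7 members were lower in LG/J over both sexes, with 1 between females and 7 between males, 3 were higher and 0 lower in SM/J males, 0 were called for sex over both strains in either direction, and 1 was higher in LG/J males. With library size only, 1 was lower in LG/J females and 8 in males of LG/J, 8 were higher in SM/J males and 0 for sex over both strains. With the length trend removed, 12 were lower in LG/J males, 7 higher in SM/J males, and 0 higher and 0 lower for sex over both strains (19 and 1 otherwise). With no filter, 1 was lower in LG/J females and 14 in males of LG/J, and 2 higher and 0 lower for sex over both strains. Without the 6 libraries in which Xist and Ddx3y were both present, 2 were lower in LG/J females, 16 higher in SM/J males and 10 higher for sex over both strains, and without these and LG/J female 1 and male 1, an alternative chosen after seeing the data, 2 were lower in LG/J females. Without LG/J female 1 and male 1, 2 were higher in LG/J females. With copies summed, 0 were higher in LG/J over both sexes or in females, and Ndufs5 turned from 5.22 to −0.36. The 2 members higher in LG/J males were 1 with DESeq2 size factors, close libraries or copies summed, library size only, no filter, the length trend removed, the replicate block or without LG/J female 1 and male 1. DESeq2 called 3 members lower in the interaction. The SM/J sex difference of Ndufs5 with its retrocopy no longer passed with library size only (0.34), the length trend removed (0.23), close libraries summed (0.42) or without the 6 libraries (0.37), and that of Ndufa12 with its copy with library size only (0.28), the length trend removed (0.20) or close libraries summed (0.32).

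No label says that a shared library number marks a shared source, and the numbers were not taken as pairs because the correlations of deviations of same-numbered libraries were not all over 0.1. They ran from −0.59 to 0.90 in 48 pairs, with 34 over 0.1. Between LG/J females and LG/J males they ran from 0.29 to 0.90, except for number 6 at −0.004. Whether those numbers mark pairs was not tested. With the library number as a block, 17 members were lower in LG/J over both sexes, 2 higher and 6 lower in females, 1 higher and 29 lower in males, and 30 were higher in SM/J males.

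Leaving out 1 library at a time gave 14 to 17 members lower over both sexes, 1 to 6 lower and 1 to 2 higher in females, 18 to 31 lower and 1 to 2 higher in males (1 without any of 22 libraries), 19 to 29 higher in SM/J males, 0 to 3 lower in the interaction, and 11 to 22 higher and 0 to 1 lower for sex over both strains. That last count was 0 lower without LG/J male 8, and 11 or 12 higher without any 1 of 15 libraries: numbers 3, 6 and 8 of the LG/J females, 4, 5, 7 and 8 of the LG/J males, 3 to 6 of the SM/J females and 4 to 7 of the SM/J males. In LG/J females, LG/J female 1 moved both counts, to 2 higher and 1 lower. The locus with fewer reads, Ndufs5 in SM/J and BC002163 in LG/J, held 10 to 36 reads per library, which limits the precision of its level there.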
